A study of Mus musculus with 4 samples.

Results

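The array of LncGata6 mutant intestinal stem cells was set directly against the array of Ehf knockout intestinal stem cells, which are 2 of the 4 arrays of a mouse small intestine study. For each of the 31292 features with exactly 1 gene symbol, of 72688 on the array, the log2 value on the Ehf knockout array was subtracted from the value on the LncGata6 mutant array. Where a gene had several features the brightest on average was taken, which left 30735 genes. Both samples were labelled as GFP+ stem cells of 8-week-old mice with the Lgr5GFP-CreERT2 reporter, 1 with the genotype LncGata6 mut and 1 with the genotype Ehf-/-. Wild-type GFP+ stem cells and wild-type GFP- non-stem cells of the same reporter gave 1 array each and are used here only to show where a value lies. All 4 groups therefore carry the reporter, which puts GFP and CreERT2 under Lgr5. The nature of the LncGata6 mutation, the sex of the mice and the number of mice behind a sample are not given in the sources used here. The collection text of every sample names a sort of ILCreg cells, a regulatory innate lymphoid population, where the sample titles name GFP. With 1 array a side no difference has an error, a test or a p-value.

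LncGata6 is a long noncoding RNA transcribed beside Gata6, a zinc finger factor of gut endoderm. Ehf is an ETS family transcription factor of epithelia, placed by the study downstream of LncGata6 and upstream of the R-spondin receptors Lgr4 and Lgr5, which amplify Wnt signalling in crypt stem cells. In the small intestine such stem cells divide at the crypt base, and their daughters become absorptive enterocytes that climb the villus or secretory goblet, Paneth and enteroendocrine cells. The comparison describes which transcripts differ between the array labelled LncGata6 mut and the array labelled Ehf-/-.

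The genes that define the 2 labels gave little check of them. Ehf read 5.09 on the LncGata6 mutant array and 3.03 on the Ehf knockout array, against 6.99 on the wild-type stem array, and only the last lay above the array's control limit. That limit is the 95th percentile of the array's 5222 negative control features, at 5.31 on the LncGata6 mutant, 5.19 on the Ehf knockout and 5.62 on the wild-type stem array. Gata6os, the symbol under which LncGata6 is listed, read 4.37 and 4.04 on the LncGata6 mutant and Ehf knockout arrays and 4.92 on the wild-type stem array, all under their limits. Lgr5, which drives the reporter, read 3.03 and 2.79 on the mutant arrays and 9.41 on the wild-type stem array. Neither mutant array therefore held a measurable level of the transcript that defines the sorted population. Arrays are called by their labels throughout.

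A gene counts as higher or lower here if its values differed by at least 1 on the log2 scale, a 2-fold difference, with the brighter value at or above its control limit. On the LncGata6 mutant array 1687 of 30735 genes were higher (5.49%) and 931 were lower (3.03%), while the median difference of all genes was 0.13. Among protein-coding genes the shares were 7.77% and 2.57%. Only 7183 genes lay above the limit on either array, and all of those called are among them. The differences were large. On the log2 scale 243 genes were higher by at least 4 and 83 by at least 6, and 59 and 16 were lower by as much. The dimmer value lay under its control limit for 1183 of the higher and 508 of the lower genes, so their folds are lower bounds, written as "at least". After quantile normalization of the 4 arrays 1288 genes were higher and 1223 lower, so the excess of higher genes depends on the scaling. Where negative controls were read by the same rule, 1.13% were higher and 0.843% lower.

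**Figure D1:**
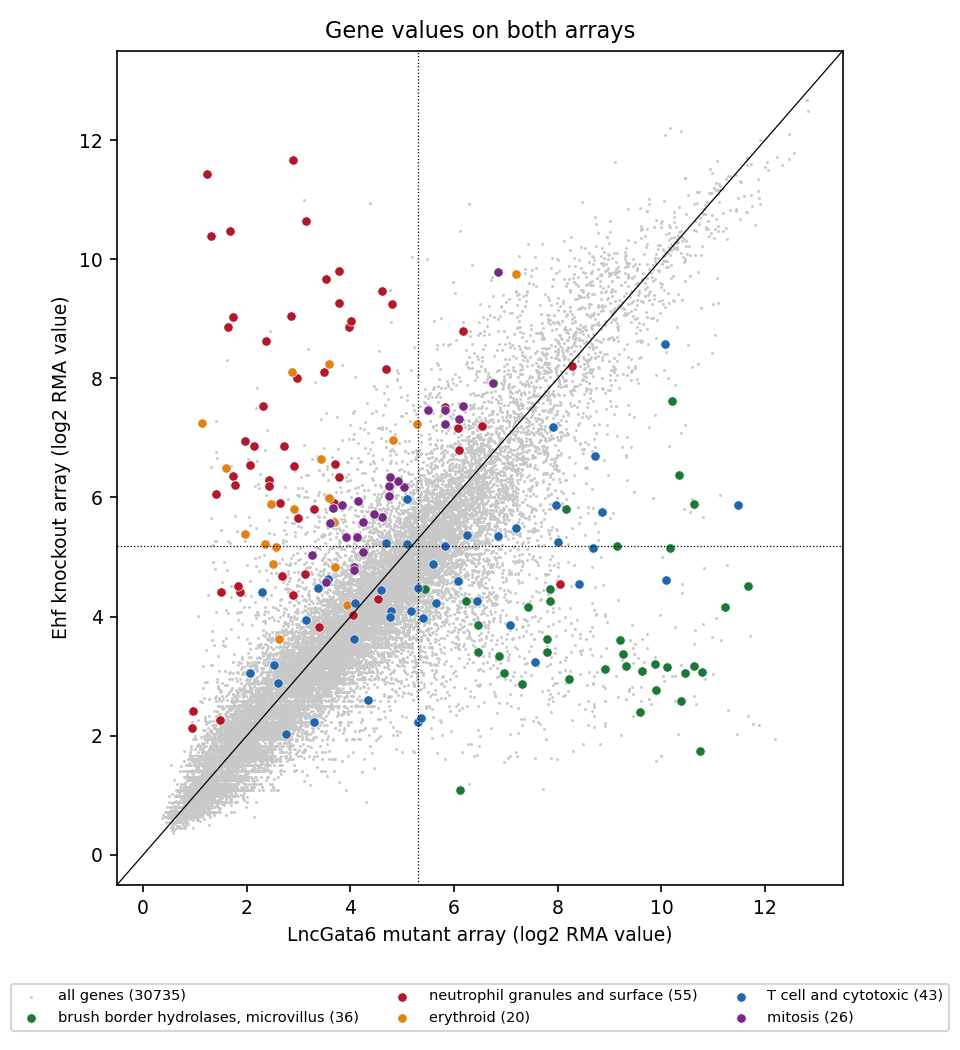
Log2 RMA values of 30735 genes on the LncGata6 mutant array (x axis) and the Ehf knockout array (y axis). Dotted lines mark each array's control limit (5.31 and 5.19) and the solid line marks equal values. Brush border and microvillus genes lie to the lower right, neutrophil and erythroid genes to the upper left, T cell genes mostly below the line and mitosis genes above it.

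Epithelial genes were prominent at the upper end of the comparison. Fabp2, the intestinal fatty acid binding protein, read 12.19 on the LncGata6 mutant array and 1.95 on the Ehf knockout array, a difference of at least 128-fold. Krt20, a keratin of mature villus cells, read 11.88 and 2.18, and the structural keratin Krt8 read 10.84 and 2.96. All 3 were at background on the Ehf knockout array and well above it on the wild-type stem array, where they read 9.54, 9.13 and 10.37. Of 24 genes of epithelial identity (keratins, claudins, desmosome and adhesion proteins) 23 were higher on the LncGata6 mutant array, with a median difference of 3.99. The 24th, the membrane protease Prss8, read 4.75 and 3.12, both under the limits. On the Ehf knockout array a single member of this list, the tight junction gene Cldn15 at 5.47, lay above the limit. Epcam, the adhesion molecule used to recognise epithelial cells, read 10.65 and 3.78, and E-cadherin (Cdh1) read 9.72 and 3.71. The summed level of the list was 13.93 on the LncGata6 mutant array and 8.60 on the Ehf knockout array, in log2 of summed linear values. In bulk RNA, fewer cells of a type and less RNA per cell cannot be told apart.

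The apical surface of the enterocyte was the group with the highest median. All 18 brush border hydrolases were higher, with a median difference of 6.02 and values under the limit on the Ehf knockout array in 16 cases. Sucrase-isomaltase (Sis), which splits sucrose and starch products, read 10.75 on the LncGata6 mutant and 1.75 on the Ehf knockout array, at least 47.0-fold apart. The zinc protease Mep1b read 10.37 and 2.59, intestinal alkaline phosphatase (Alpi) read 10.64 and 3.16, and the aminopeptidases Anpep and Enpep read 11.68 and 9.59 on the LncGata6 mutant array, against 4.51 and 2.40 on the Ehf knockout array. The microvilli that carry these enzymes went the same way, with 17 of 18 structural genes higher (median 4.07). Among them were villin (Vil1, 10.10 and 3.16), the actin bundler Pls1 (11.23 and 4.16), the motor Myo1a (9.21 and 3.61) and the protocadherins Cdhr5 (10.46 and 3.05) and Cdhr2 (9.63 and 3.08), which tether microvilli to each other. Espn, another actin bundler, read 5.44 and 4.46 and missed the 2-fold limit. Ezrin (Ezr), which links membrane to actin in many cell types, was one of 2 microvillus genes still above the limit on the Ehf knockout array, at 10.20 and 7.62.

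Genes of nutrient uptake followed. Of 21 genes of fat absorption 17 were higher (median 3.30), including the chylomicron proteins Apob (11.29 on the LncGata6 mutant and 2.43 on the Ehf knockout array), Apoa4 (10.98 and 3.65) and Apoa1 (11.05 and 3.98), and the lipid transfer protein Mttp (10.05 and 2.92). Of 24 carriers of sugars, amino acids and vitamins 18 were higher (median 2.74). The glucose cotransporter Slc5a1 read 10.20 and 2.99, the peptide carrier Slc15a1 read 10.38 and 3.19, the cystine carrier subunit Slc3a1 read 9.61 and 2.58, and the phosphate carrier Slc34a2 read 9.47 and 3.37. Against these carriers stood the iron exporter ferroportin (Slc40a1), which was lower, at 3.35 on the LncGata6 mutant and 6.70 on the Ehf knockout array. It is made both by duodenal enterocytes and by macrophages that recycle red cells. Of 8 genes of ileal bile acid handling 5 were higher, among them the bile acid binding protein Fabp6 (8.87 and 2.83), the exporter subunits Slc51b (10.26 and 2.58) and Slc51a (7.0 and 3.48) and the apical importer Slc10a2 (5.67 and 1.72).

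Most members of both villus zonation lists were higher. At the villus tip 14 of 15 were higher (median 4.34). Clca4b and Clca4a, calcium-activated chloride channel regulators of villus tips, read 11.77 and 11.46 on the LncGata6 mutant array, against 2.19 and 2.02 on the Ehf knockout array. The ectonucleotidase Enpp3 read 10.78 and 3.06, and on the wild-type stem array it read 4.89, under that limit. Of 17 genes of the villus base and surface defence 12 were higher (median 3.68), with the antibacterial lectins Reg3b (11.68 and 2.32) and Reg3g (10.09 and 3.18), the flagellin binder Lypd8 (10.63 and 2.67) and the antibody carrier Pigr (10.64 and 3.53). Here the wild-type stem array read about as high as the LncGata6 mutant array, at 10.95, 9.30, 10.81 and 10.47 in the same order. Of 16 genes of purine breakdown, an activity of upper villus cells, 13 were higher (median 2.58). Adenosine deaminase (Ada), which converts adenosine to inosine, read 11.13 and 6.04, and the nucleoside carrier Slc28a2 read 9.07 and 5.73. Both were above the limit on both arrays, and the measured folds were 33.9 and 10.1. Ampd3, the red cell isoform of AMP deaminase, was the lower member, at 4.26 and 5.99.

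Of 25 enzymes that clear foreign compounds 21 were higher (median 4.42). The cytochrome Cyp3a13 read 9.99 on the LncGata6 mutant array and 1.66 on the Ehf knockout array, and Cyp2c65, an intestinal cytochrome, read 8.30 and 1.75. Cyp3a11 read 8.66 and 2.42, the sulfotransferase Sult1b1 read 7.72 and 1.11, and Sult1d1 read 7.98 and 1.61. Mitochondrial and sterol genes differed less. Of 19 genes of fatty acid oxidation and ketogenesis 11 were higher (median 1.16), among them Hadh (9.0 and 5.66), but 6 or 7 under the 3 other scalings. Of 16 cholesterol synthesis genes 7 were higher (median 0.92), led by Hmgcs1 (7.66 and 5.0), which makes HMG-CoA for the pathway. Respiratory chain subunits had a median of 0.78 with 8 of 24 higher, which became 2 or 3 under the other scalings. The urea cycle genes Otc (7.73 and 2.11) and Cps1 (7.87 and 2.39), used by enterocytes to make citrulline, were both higher.

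**Figure D2:**
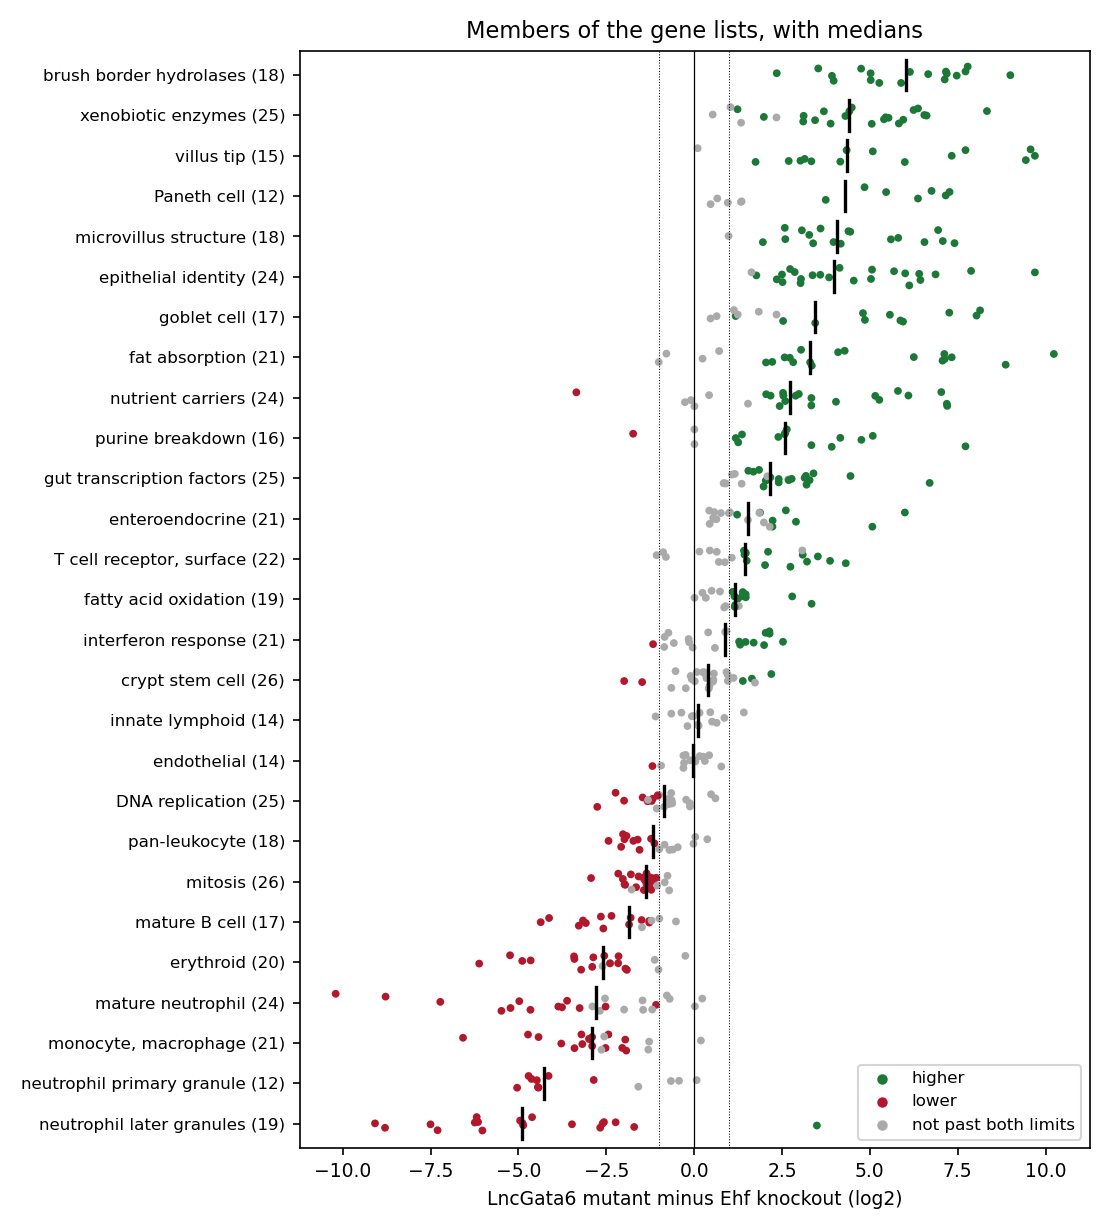
Difference of each list member, LncGata6 mutant minus Ehf knockout (log2, x axis), by gene list (y axis, number of measured members in brackets), with the list median as a black bar. Green points were higher and red points lower by both limits. Medians run between 6.02 for brush border hydrolases and -4.89 for later neutrophil granules.

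Goblet, Paneth and enteroendocrine genes, where called, were also higher on the LncGata6 mutant array. Of 17 goblet cell genes 11 were higher (median 3.45). The mucin Muc2 read 10.26 on the LncGata6 mutant and 3.0 on the Ehf knockout array, the lectin Zg16 read 11.71 and 3.67, the mucus protease Clca1 read 10.68 and 2.54, and the trefoil peptide Tff3 read 9.97 and 4.03. Of 12 Paneth cell genes 7 were higher (median 4.30), among them the alpha-defensins Defa21 (9.77 and 2.61) and Defa22 (9.80 and 2.53), whose near-identical family may share probes, and the lectin Itln1 (8.70 and 2.33). Those 3 Paneth genes read higher still on the wild-type stem array, at 11.30, 11.29 and 10.53. Of the 12 Paneth genes, 1 lay above the limit on the Ehf knockout array, at 9.29. It was not called, as no member exceeded 10.25 on the LncGata6 mutant array. Of 21 enteroendocrine genes 8 were higher (median 1.53). The largest was Nts, which encodes the ileal hormone neurotensin, at 8.27 and 2.27. The hormone genes Gip (6.27 and 3.37) and Sst (6.5 and 4.28) and the granule proteins Chga (6.24 and 4.01) and Chgb (5.81 and 3.20) were higher too. The 13 tuft cell genes gave no higher member, and as 0 lay above the limit on the LncGata6 mutant array, none could be called higher. The 2 lower ones were Alox5ap, which feeds leukotriene synthesis and is abundant in myeloid cells, at 4.76 and 9.49, and Plcb2 at 4.43 and 5.63. The defining tuft genes Dclk1, Trpm5 and Pou2f3 lay under the limit on both arrays.

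The transcription factors of gut endoderm were higher in 17 of 25 cases and lower in none, with a median of 2.17. Hnf4g, a nuclear receptor that holds enterocyte identity together with Hnf4a, read 8.92 on the LncGata6 mutant and 2.22 on the Ehf knockout array. Hnf4a read 7.75 and 4.57, and Gata6 itself read 7.62 and 3.17, at least 5.40-fold apart. The homeobox factor Isx (6.64 and 3.24), the vitamin D receptor Vdr (7.43 and 4.23) and Onecut2 (5.6 and 2.31) were higher as well, and Cdx2, the master homeobox factor of the intestine, read 6.31 and 4.27. On the wild-type stem array Gata6, Hnf4a and Hnf4g read 7.21, 7.31 and 7.38, within 1 of the LncGata6 mutant array for the first pair and 1.54 below it for Hnf4g. Among 23 ETS factors, the family of Ehf, 2 were higher and 2 lower, beside 5.49% and 3.03% of all genes. Elf3, an epithelial relative of Ehf, read 7.02 and 3.71, and Ets2 read 5.96 and 4.58. Spi1, the ETS factor that directs myeloid cells, read 5.09 and 7.71, and Spic, an ETS factor of red pulp macrophages in the spleen, read 1.31 and 5.65.

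Short matches to the motifs of these factors were then looked up in the 250 bases before transcription starts, on both strands, in RefSeq promoters of GRCm38.p6. Not every chromosome was searched, and 15614 of the 19258 protein-coding genes compared had a stretch to search. The motifs and gene groups were chosen after the values had been seen. The 6 lists called absorptive here were brush border hydrolases, fat absorption, nutrient carriers, microvillus structure, villus tip and the enzymes that clear foreign compounds. Of their 118 measured members 97 had a stretch to search. The Hnf4 motif CAAAGTCCA occurred before 6 of 97 members of these lists (6.19%), with Cyp2c65 and Cyp3a11 of the last list among them. It occurred before 0 of 63 members of 4 neutrophil and monocyte lists and 0.493% of 15614 protein-coding genes. Those 63 are the members, of 76 measured, that had a stretch to search. Over all called genes the shares were alike, 1.5% of the higher and 1.52% of the lower. The Spi1 motif GAGGAAGT occurred before 9 of those 63 myeloid members (14.3%), 3 of the 97 absorptive members (3.09%) and 2.65% of all, and before 3.74% of the higher and 7.85% of the lower genes. A second Hnf4 spelling, CAAAGGTCA, occurred before 1 of 97 absorptive members and 0.461% of all. The Cdx motif TTTATGG occurred before 4 of 97 absorptive and 2 of 63 myeloid members and 2.48% of all, and an Hnf1 palindrome occurred before 1 gene of all. The 2 Hnf4 spellings share most of their letters, and overlap of matches between motifs was not examined. The stretches that hold 4 of the absorptive and 4 of the myeloid matches are shown because they belong to genes at opposite ends of the comparison, with the match in capitals and up to 20 bases on each side, read toward the gene.
Alpi (chr1:87101607-87101645, minus strand): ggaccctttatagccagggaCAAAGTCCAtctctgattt
Slc3a1 (chr17:85028288-85028336, plus strand): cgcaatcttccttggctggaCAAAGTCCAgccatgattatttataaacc
Cyp3a11 (chr5:145879935-145879983, minus strand): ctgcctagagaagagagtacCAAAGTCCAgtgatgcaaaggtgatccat
Treh (chr9:44673142-44673190, plus strand): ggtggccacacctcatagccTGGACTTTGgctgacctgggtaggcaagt
S100a8 (chr3:90668879-90668926, plus strand): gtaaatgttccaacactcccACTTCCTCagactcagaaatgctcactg
Mmp8 (chr9:7558188-7558235, plus strand): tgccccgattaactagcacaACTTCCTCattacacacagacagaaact
Elane (chr10:79886207-79886254, plus strand): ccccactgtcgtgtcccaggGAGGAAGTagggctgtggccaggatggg
Mpo (chr11:87793540-87793587, plus strand): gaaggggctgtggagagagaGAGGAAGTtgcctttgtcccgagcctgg
The match in Treh, which encodes the brush border enzyme trehalase, and those in S100a8 and Mmp8 lie on the other strand. Treh read 8.22 on the LncGata6 mutant and 2.95 on the Ehf knockout array. A match is a description of letters and not evidence of binding.

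Crypt stem cell genes differed in both directions. Of 26 such genes 3 were higher and 2 lower, beside 5.49% and 3.03% of all genes, with a median difference of 0.38. Of the 26, 3 lay above the limit on the LncGata6 mutant and 5 on the Ehf knockout array, against 11 on the wild-type stem array. Olfm4, a secreted marker of crypt base cells, read 8.06 and 5.86 on the mutant arrays and 10.81 on the wild-type stem array. The cotransporter Slc12a2 read 6.06 and 4.42, and the Wnt feedback gene Axin2 read 5.38 and 3.99. Lower were Cd44, a hyaluronan receptor of crypts and leukocytes (5.28 and 6.76), and the urea carrier Slc14a1, in human also a red cell antigen (4.22 and 6.21). Ascl2 and Smoc2, both tied to Lgr5+ stem cells, lay under the limit on both arrays. Among 18 Wnt receptor genes and subunits of the NURF remodeller, which the study links to LncGata6, 2 were higher, beside 5.49% of all genes. Lgr4 read 5.57 on the LncGata6 mutant and 3.10 on the Ehf knockout array, at least 1.30-fold apart, and Fzd5 read 6.05 and 4.19. Bptf, the large subunit of NURF, read 5.92 and 5.89.

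**Figure D3:**
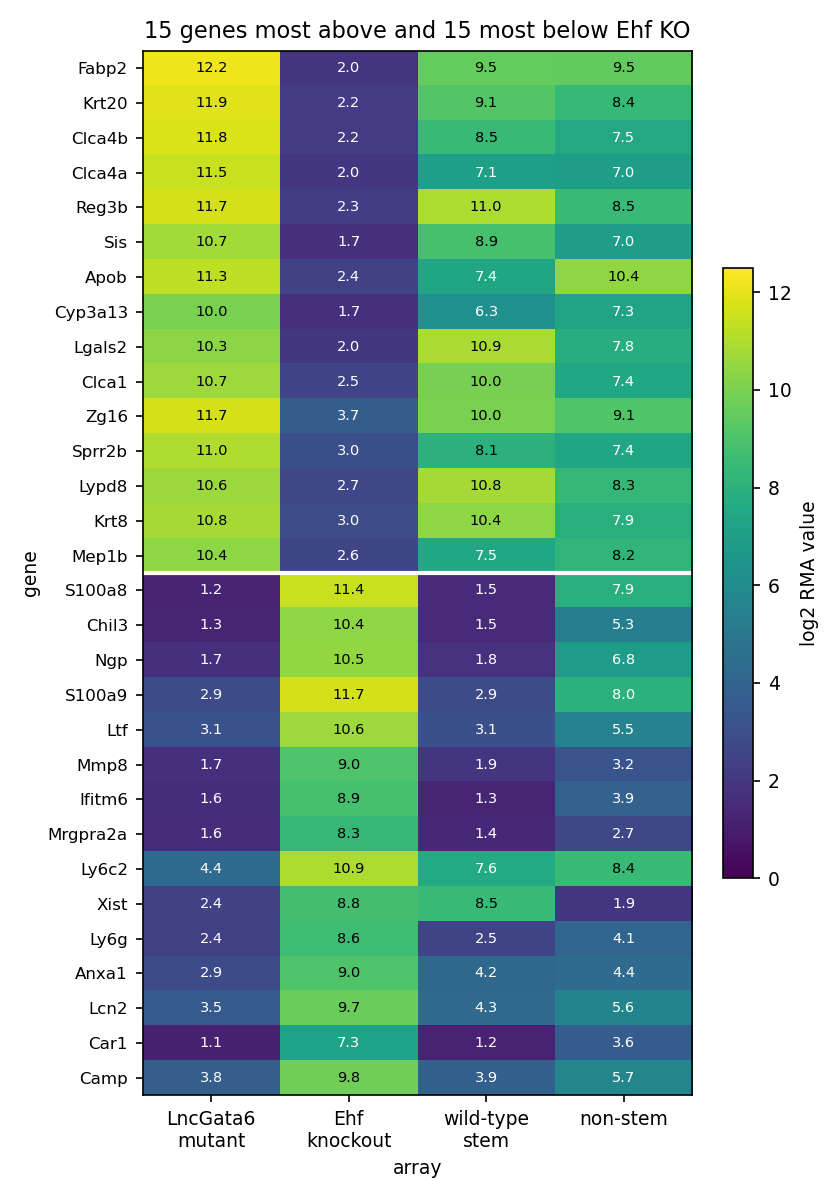
Log2 RMA values (colour and number) of the 15 genes most above and the 15 most below the Ehf knockout array, on the LncGata6 mutant, Ehf knockout, wild-type stem and non-stem arrays. Along each upper row the Ehf knockout value, at most 3.67, is below the other 3. Along each lower row the LncGata6 mutant value lies under its control limit, and of those genes Xist and Ly6c2 are also high on the wild-type stem array.

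The lower end of the comparison was led by neutrophil granules. S100a8, a calcium-binding subunit of calprotectin, read 1.24 on the LncGata6 mutant array and 11.44 on the Ehf knockout array, at least 69.9-fold lower. Its partner S100a9 read 2.89 and 11.67. Both were at 1.51 and 2.92 on the wild-type stem array. Granule proteins are made in the order in which neutrophils mature, and members of every stage were lower. Of 12 genes of primary granules and precursors 8 were lower (median -4.29), including myeloperoxidase (Mpo, 2.96 and 8.00), cathepsin G (Ctsg, 1.74 and 6.36) and Ms4a3 of granulocyte precursors (1.77 and 6.20). Of 19 genes of the later granules 18 were lower (median -4.89). Among these were Ngp (1.67 and 10.47), lactoferrin (Ltf, 3.15 and 10.65), the collagenase Mmp8 (1.74 and 9.04), cathelicidin (Camp, 3.77 and 9.80), lipocalin 2 (Lcn2, 3.52 and 9.67) and the chitinase-like Chil3 (1.31 and 10.39). The exception was arginase 2 (Arg2), a mitochondrial enzyme that the gut also makes, at 8.05 and 4.55. Of 24 genes of mature neutrophils 13 were lower and 0 higher (median -2.79), as with the resistin-like Retnlg (3.79 and 9.27), Ifitm6 (1.64 and 8.86) and the receptor Mrgpra2b (1.97 and 6.95). Summed levels of the later granule list were 9.17 and 13.37. The part that the low level of epithelial transcripts on the Ehf knockout array has in these differences was not tested.

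Other blood lineages accompanied them. Of 21 monocyte and macrophage genes 16 were lower (median -2.90), among them Ly6c2, a surface protein of inflammatory monocytes (4.37 and 10.95), the pore protein Mpeg1 (2.40 and 7.12), coagulation factor F13a1 (2.36 and 6.79) and the mannose receptor Mrc1 (3.10 and 6.88). Ly6c2 read 7.63 on the wild-type stem array, between the mutants. Among 20 erythroid genes 15 were lower and 0 higher (median -2.58). The haem enzyme Alas2 read 2.87 on the LncGata6 mutant and 8.11 on the Ehf knockout array, band 3 (Slc4a1) read 3.58 and 8.23, the ammonium channel Rhag read 1.6 and 6.49, and carbonic anhydrase 1 (Car1) read 1.13 and 7.25. Red cell progenitor factors did not pass, with Gata1 at 2.62 and 3.63 and Klf1 at 2.50 and 4.88, all under the limits. Of 12 genes of early blood progenitors none was called and none lay above the limit on either array. A list of 12 red pulp and resident macrophage genes, drawn up after the largest differences had been seen, had 7 lower (median -2.40). Its members included the transcription factor Spic, the adhesion molecule Vcam1 (3.31 and 7.95), the haem oxygenase Hmox1 (3.84 and 8.23) and the scavenger protein Cd5l (3.26 and 6.64). The eosinophil granule protein Prg2 read 2.21 and 7.83 and the platelet chemokine Ppbp read 2.22 and 6.23. In their lists 3 of 18 dendritic, mast, basophil and eosinophil genes were lower (median -0.88) and 1 of 11 platelet genes was lower (median -0.65). Of all genes 3.03% were lower. After quantile normalization the 3 became 5.

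B cell transcripts were lower on the LncGata6 mutant array in 13 of 17 cases (median -1.85). Ighm, the IgM heavy chain, read 6.11 on the LncGata6 mutant and 10.48 on the Ehf knockout array, a measured 20.6-fold difference. The B cell antigens Ms4a1 (4.31 and 7.59), Cd79b (4.71 and 7.88), Cr2 (2.26 and 6.39) and Cxcr5 (2.92 and 5.57) were lower with it. Genes of immature B cells lay mostly under the limits. Of 13, 2 were above the limit on the LncGata6 mutant and 1 on the Ehf knockout array, so almost none could be called lower. None was lower (median 0.09), and Bst1, a surface enzyme of stromal and myeloid cells as well, was higher, at 7.44 and 5.04. Immunoglobulin V segments, looked at after values had been seen, were lower in 98 of 117 heavy chain cases (median -2.05) and in 64 of 86 kappa cases (median -1.95). Near-identical segments may share probes. Their heavy chain median was 6.17 on the LncGata6 mutant, 8.28 on the Ehf knockout and 8.03 on the wild-type stem array, so here the 2 last arrays were alike. Ighv3-5 stood apart from its family, at 3.10 on the LncGata6 mutant, 11.00 on the Ehf knockout and 4.33 on the wild-type stem array. Jchain, which joins IgA and IgM units in plasma cells, read 6.69 and 8.02, and 8.61 on the wild-type stem array.

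**Figure D4:**
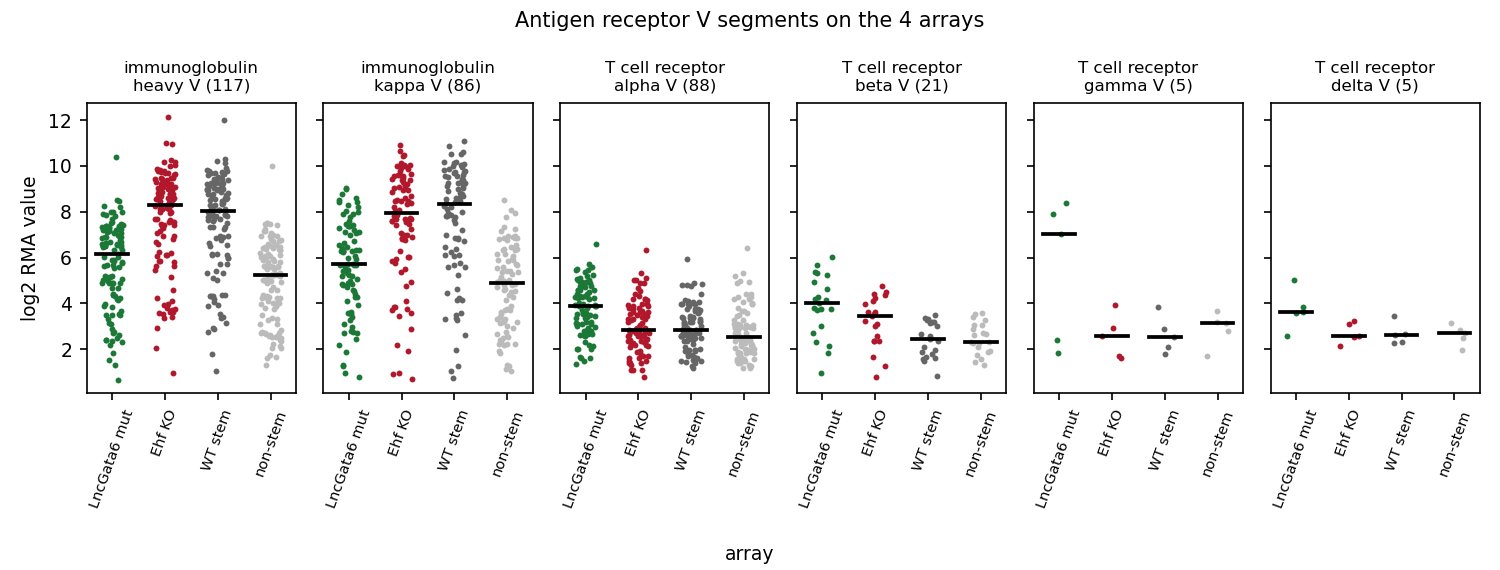
Log2 RMA values of immunoglobulin and T cell receptor V segments (1 point each, number in brackets, black bars for medians) on the LncGata6 mutant, Ehf knockout, wild-type stem and non-stem arrays. Heavy and kappa medians are lower on the LncGata6 mutant than on the Ehf knockout array. For gamma segments the LncGata6 mutant median of 7.05 is set by 3 segments that read at background elsewhere.

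Not all lymphocyte transcripts went that way. Of 22 genes of the T cell receptor complex and T cell surface 12 were higher on the LncGata6 mutant array and 0 lower (median 1.45). Itgae, the integrin chain that anchors intraepithelial lymphocytes to E-cadherin, read 7.56 on the LncGata6 mutant and 3.24 on the Ehf knockout array. Cd8a read 8.68 and 5.16, Cd96 read 8.41 and 4.54, Cd160 read 7.07 and 3.86 and the receptor subunit Cd3g read 8.00 and 5.26. Cd4, of helper T cells, read 5.09 and 5.98 and was not called. It was lower under each of the 3 other scalings, the only T cell gene that was. Among 21 cytotoxic genes 6 were higher, led by the granzymes Gzma (11.47 and 5.88) and Gzmb (10.09 and 4.61), and the killer lectin receptor Klrd1 read 6.44 and 4.25. The granzyme genes were near background on the Ehf knockout array, while the chemokine Ccl5 was bright on both, at 10.08 and 8.58. The natural killer receptor Ncr1 and perforin (Prf1) lay under the limit on both arrays.

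Receptor transcripts of the gamma chain were higher with them. In a list of 10 measured genes drawn up after values had been seen, 5 were higher (median 3.10). The constant region Trgc3 read 10.11 on the LncGata6 mutant and 4.62 on the Ehf knockout array, the joining segment Trgj3 read 8.70 and 2.54, and the variable segments Trgv7, Trgv4 and Trgv3 read 7.05, 7.92 and 8.37, against 1.63, 2.58 and 3.95. On the wild-type stem array all 5 lay under the limit. The gamma genes are close copies of each other and may share probes. Trgv7 is the segment most used by gamma delta lymphocytes of the mouse gut epithelium. Trgv5 and Trgv6, used in skin and in uterus or lung, lay under the limit on both arrays. Of 5 delta V segments 0 were called, and none lay above the limit on either array. Of the other chains, 3 of 88 alpha and 3 of 21 beta V segments were higher, at medians of 0.75 and 0.60. Over all genes 5.49% were higher, and the alpha share lay under that. Genes expressed by all leukocytes leaned toward the Ehf knockout array, with 10 of 18 lower (median -1.18), as with the integrin chain Itgb2 (5.72 and 8.16) and Cd53 (7.26 and 9.33). CD45 (Ptprc) itself read 7.80 and 8.41 and was not called, and 5.72 on the wild-type stem array, so its transcript was above that array's level on both mutants. None of 14 innate lymphoid genes was called. Of the 14, 2 lay above the limit on the LncGata6 mutant and 2 on the Ehf knockout array, so few could be called. Il7r read 6.54 and 6.08, and Il23r, Il22, Il10 and Klrg1 lay under the limit on both.

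Interferon response genes split 9 higher to 1 lower of 21 (median 0.88). Ifit1 read 6.73 on the LncGata6 mutant and 4.20 on the Ehf knockout array, the sensor Zbp1 read 7.50 and 5.80, and Oasl2 read 6.74 and 4.75. Their wild-type stem values of 3.31, 4.82 and 4.55 were under the limit. Ifi27l2a was the lower one, at 4.06 and 5.23. Classical class II genes were alike, as with H2-Ab1 (9.54 and 9.01) and H2-Aa (6.80 and 6.68). The single called member of that list, H2-Q2 (9.47 and 6.09), is a class I gene whose close relatives may share its probes. Stress genes that cell isolation can induce gave 4 higher and 1 lower of 18, beside 5.49% and 3.03% of all genes. Hspa1a read 8.34 and 3.79, Atf3 read 7.22 and 4.25 and Jun read 8.58 and 5.84, with wild-type stem values of 9.02, 8.52 and 9.35.

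Cell division genes were lower on the LncGata6 mutant array. Of 26 mitosis genes 21 were lower and 0 higher (median -1.36). The proliferation antigen Mki67 read 6.84 on the LncGata6 mutant and 9.78 on the Ehf knockout array, the spindle motor Kif11 read 5.49 and 7.47, and the kinetochore motor Cenpe read 3.85 and 5.87. Of 25 DNA replication genes 9 were lower (median -0.85), including the ribonucleotide reductase subunits Rrm2 (4.62 and 7.38) and Rrm1 (5.61 and 7.85) and the helicase subunit Mcm5 (4.46 and 6.45). The wild-type stem array lay between the mutants for Mki67 (8.55), Kif11 (7.18), Cenpe (5.46) and Rrm1 (6.86). Over the mitosis list the median difference from the wild-type stem array was -1.33 for the LncGata6 mutant and 0.09 for the Ehf knockout array, and over the DNA replication list it was -0.68 and 0.10. Both differences share the wild-type stem array, which lay nearer the Ehf knockout array for these lists. On the Ehf knockout array these genes were thus bright where 23 of 24 epithelial identity genes were under the limit. Which cells carried the division transcripts was not tested.

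Long noncoding genes were seldom called, while Snord and ribosomal RNA features were often lower. Of 3343 long noncoding genes 9 were higher and 5 lower, beside 5.49% and 3.03% of all genes. The highest were Gm5485 (7.09 and 1.67) and Tmem238l (7.98 and 2.88), and Neat1, which builds nuclear paraspeckles, read 7.06 and 5.80 but did not pass after quantile normalization. The lowest was Xist, which silences an X chromosome in females, at 2.44 on the LncGata6 mutant and 8.79 on the Ehf knockout array. The Y-linked genes Kdm5d (4.48 and 2.13), Uty (4.50 and 1.92) and Eif2s3y (4.82 and 2.01) differed the other way, with every value under the limits, so sex of the mice and genotype cannot be told apart in this comparison. Small nucleolar RNAs of the Snord class were lower in 19 of 44 cases (median -0.93), and ribosomal RNA features were lower in 22 of 62. Other small RNA classes did not follow. Of 18 small nucleolar RNAs of the Snora class 3 were higher and 4 lower. Of all 955 small nucleolar RNA genes 6 were higher and 54 lower, and of 914 small nuclear RNA genes 1 was higher and 19 lower. Protein genes of the cytosolic ribosome were lower in 2 of 16 cases, beside 3.03% of all genes. These were Rpl8 (7.44 and 8.50) and Rps9 (4.63 and 5.66).

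Among 925 microRNA genes 5 were higher and 1 lower, beside 5.49% and 3.03% of all genes, so calls were rarer among microRNAs. The 2 that differed most lie next to each other on chromosome 1 and are known as microRNAs of intestinal epithelium. The feature of Mir194-1 read 6.51 on the LncGata6 mutant and 3.62 on the Ehf knockout array, and that of Mir215 read 6.58 and 4.13. On the wild-type stem array both lay under the limit, at 4.31 and 5.04, and which stretch of the precursor the features read is not given here. Their mature 5p sequences from RefSeq GRCm38.p6 are shown with the seed, bases 2 to 8, in capitals.
miR-194-5p (chr1:185313325-185313346, plus strand): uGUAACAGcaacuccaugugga
miR-215-5p (chr1:185313610-185313630, plus strand): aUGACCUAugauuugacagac
The seeds differ, so the 2 do not form a seed family. The second copy of the cluster did not pass, with Mir194-2 at 5.27 and 4.61 and Mir192 at 2.41 and 1.42, under the limits.

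The place of the wild-type stem array was read for each gene called. Of the 1687 higher genes it lay within 1 of the LncGata6 mutant array only for 627 and within 1 of the Ehf knockout array only for 365. It was close to both for 350, between them and at least 1 from each for 258, at least 1 above both for 62 and at least 1 below both for 25. Krt8, Lypd8 and Pigr are of the first kind. Trgc3 and the lactate carrier Slc5a12, at 7.52 on the LncGata6 mutant, 2.25 on the Ehf knockout and 2.15 on the wild-type stem array, are of the second, and Gzma lay between. Of the 931 lower genes the wild-type stem array was within 1 of the LncGata6 mutant array only for 429 and of the Ehf knockout array only for 284. S100a8, Ngp and Alas2 were near the LncGata6 mutant array and Xist near the Ehf knockout array. Under quantile normalization and cyclic loess the 627 became 388 and 406 and the 365 became 368 and 443, so which of these counts was larger turned under cyclic loess.

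**Figure D5:**
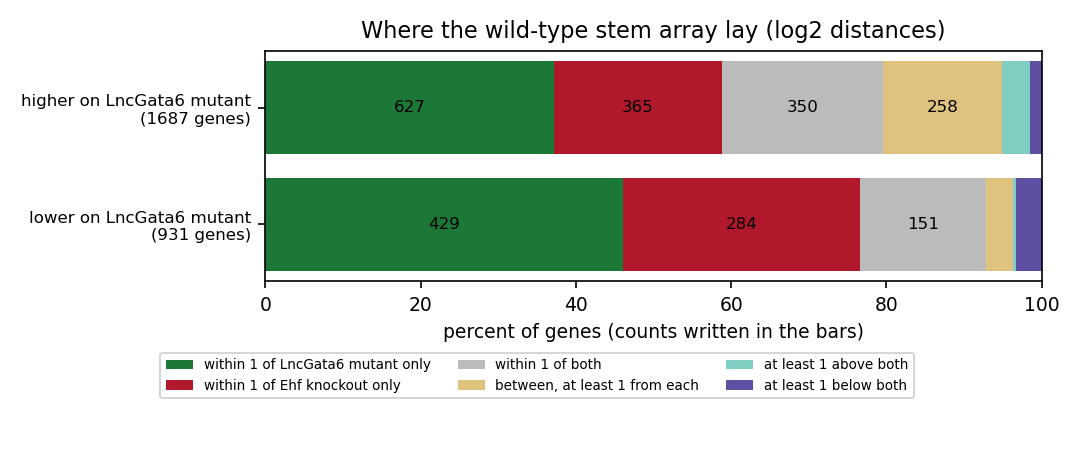
Share of genes (x axis, percent, with counts in the bars) by where the wild-type stem value lay, for the 1687 genes higher and the 931 genes lower on the LncGata6 mutant than on the Ehf knockout array. The wild-type stem value was within 1 (log2) of the LncGata6 mutant value only for 627 and 429 of them.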

How the data were processed

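Gene expression was read on Affymetrix Clariom D mouse arrays, 1 per group. The deposited table holds the authors' log2 values per feature, made with Affymetrix Power Tools and RMA per the submitters' processing notes. RMA subtracts a modelled background, normalizes and summarises probes, and so compresses differences of dim features. Symbols of the platform annotation were updated through RefSeq GRCm38.p6, which changed 1204. Features with several symbols (1458) and those unnamed here (39938) stayed out. Folds are brighter over dimmer, with a dimmer value under its control limit replaced by that limit, and none is given where both lay under. The number of arrays limits the precision.

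The 53 gene lists, the limits and the members were chosen with earlier results of these data known. Genes were named by rule: the targeted genes and R-spondin receptors, the 15 largest differences each way (without predicted genes, small RNAs, receptor segments and defensins), up to 6 called members of each list and up to 3 against it, and 5 long noncoding genes each way. Uncalled, wild-type, segment, microRNA and promoter examples were chosen after their values were seen. The counting was checked on simulated data. Python 3.11.15, pandas 2.3.3 and limma 3.58.1 were used.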

Additional observations from a re-analysis of the deposited data

Results flagged for a closer look

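Features that carry several gene symbols stayed out of every comparison, yet they differed more often than the negative controls. Of 1458 such features 63 were higher on the LncGata6 mutant than on the Ehf knockout array (4.32%) and 85 were lower (5.83%), against 1.13% and 0.843% of the 5222 negative controls. Among the genes compared, which have 1 symbol, 5.49% were higher and 3.03% lower. The features with several symbols thus exceeded those genes only in the lower direction. Their differences ran between -6.08 and 8.61 (log2), and no gene is named from them. Transcript clusters unnamed here did not exceed the controls, with 0.825% higher and 0.611% lower of 33206.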

How the results depend on the processing

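Each direction of the 19 lists with at least 60 percent of members called one way, and of the 238 named genes that were called, was the same after median centring, quantile normalization and cyclic loess, and 232 to 238 of these genes stayed past both limits under these scalings and under the median of a gene's features. Median centring took the median of all genes to -0.04, against 0.13 as deposited. Genes higher and lower numbered 1454 and 1176 after median centring, 1288 and 1223 after quantile normalization (51.3% higher, against 64.4%) and 1434 and 1086 after cyclic loess. With a brightness limit at the 99th percentile of negative controls, 7.89 and 7.71, 372 were higher and 361 lower (50.8% higher), and lists with at least 60 percent of members called fell to 2 higher and 1 lower, against 13 and 6. Without any brightness limit 2581 were higher. Protein-coding genes alone gave 494 lower (75.2% higher), and a difference of at least 2 gave 769 higher and 372 lower. For the place of the wild-type stem array among higher genes, LncGata6 mutant only became 388 (quantile), 406 (loess) and 95 (stricter limit), and Ehf knockout only became 63 (stricter limit). Among lower genes the stricter limit gave 106 and 176. The stricter limits leave fewer genes to call, and the cause of the other shifts was not tested. Mep1b differed by over 1.5 times with the median of its features. Respiratory chain and fatty acid oxidation counts depend on the scaling, as do some small counts of lower members (interferon, T cell, ribosomal and stress lists). No paired analysis was possible because each group has 1 array. Signal near background limits the rest, since most genes lay under the control limit on both arrays.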
